A study of Mus musculus with 12 samples.

Results

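The 33 genes described here encode the cytoskeleton, the adhesion molecules and the RNA-binding proteins that neurons make as they differentiate. They were taken as a named list of pan-neuronal differentiation genes, matched to the Ensembl gene IDs of a bulk RNA-seq count table through their mouse symbols. All 33 were found among the 55335 IDs of the table, and all 33 were among the 18844 genes that had enough counts to be tested. They were divided into 24 genes known for early expression, with *Stmn1* already made in progenitors, and 9 known for later maturation. The early genes were *Tubb3*, *Tubb2b*, *Tubb2a*, *Stmn1*, *Stmn2*, *Stmn4*, *Gap43*, *Map1b*, *Crmp1*, *Dpysl3*, *Dpysl5*, *Elavl2*, *Elavl3*, *Elavl4*, *Cntn2*, *L1cam*, *Nrcam*, *Ncam1*, *Chl1*, *Ina*, *Gpm6a*, *Myt1l*, *Nova1* and *Nova2*. The late genes were *Map2*, *Mapt*, *Nefl*, *Nefm*, *Rbfox3*, *Nfasc*, *Celf4*, *Stmn3* and *Rtn1*.

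A neuron that leaves the ventricular zone of the embryonic cortex builds stable microtubules from neuronal tubulins, steers its growth cone with stathmins and collapsin response mediator proteins, and bundles its axon with adhesion molecules of the immunoglobulin superfamily. Neurofilament subunits, tau and dendritic MAP2 accumulate as the cell matures, while Elavl, Nova, Celf and Rbfox proteins set its splicing and mRNA stability. In whole cortical tissue these transcripts rise with the share of neurons among progenitors, so that fewer neurons and less RNA per neuron cannot be told apart in bulk libraries.

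The tissue was embryonic mouse cortex at stage E13.5, from matings of mice heterozygous for a null allele of *Med13l*, a subunit gene of the Mediator kinase module. WT libraries came from wild-type embryos, Het libraries from heterozygotes with 1 functional allele and KO libraries from homozygous null embryos, with 3 libraries per genotype. All embryos, WT included, thus had heterozygous parents. The sources used here do not say how the null allele was made, and the 3 single-cell samples of the series were not analysed here. The sample descriptions also carry a letter whose meaning is not given: libraries 1 and 2 of each genotype have D and library 3 has F. The labels name 3 brain tissues per genotype without saying that they came from different litters, so the p-values measure only the spread between these samples.

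Most of the 33 genes had a lower level in KO than in WT, by a median of -0.34 on the log2 scale, but none of these differences passed the edgeR test (0 of 33, as 0.00531% of all genes). The smallest p-values (unadjusted, under 0.05) were those of *Rbfox3*, the gene of the NeuN antigen, *Cntn2* and *Nfasc*, axonal adhesion genes, and *Gpm6a*, a membrane protein gene, whose KO libraries all lay below their WT libraries. These were 4 of 33 genes, where 2.27% of all genes were lower at that p. In all, 7 of 33 genes had every KO library below every WT library, where 7.56% of all genes did. Het levels were spread around those of WT, with 1 library far above and the others near or below.

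Totals ran from 37909377 to 52992392 counts per library, and the 33 genes took 1.53% to 1.67% of them in WT. The targeted gene did not check the labels: *Med13l* was at 145, 146 and 116 CPM in WT, at 141, 156 and 160.2 CPM in Het and at 129.97, 156 and 163 CPM in KO. KO minus WT was 0.14 on the log2 scale (SE 0.12, adjusted p = 0.901 by edgeR), and counts summed over all its exons cannot show a change in part of the transcript. Here and below CPM are counts per 1000000 on TMM-scaled library sizes, and values for 3 libraries are given in the order of replicates 1, 2 and 3.

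Across the 33 genes 2 of the 9 libraries stood apart, Het 1 at the top and KO 1 at the bottom. Of the 33 genes, 27 had their highest level in Het 1 (20 of 24 early and 7 of 9 late genes), 32 had their lowest in KO 1 (23 of 24 early and 9 of 9 late), and 26 showed both. The median gene stood at 1.72 times the median of the other 8 libraries in Het 1 and at 0.556 times in KO 1, whereas the median of all genes tested stood at 0.990 and 0.998 times. The 6 genes whose highest library was another one were *Rbfox3* and *Stmn1* (WT 3), *Cntn2*, *Elavl2* and *Nfasc* (Het 2) and *Gpm6a* (WT 2), and the gene whose lowest library was not KO 1 was *Nova1* (Het 2).

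Markers of other regions and cell types differed in these 2 libraries and also in others. The library labelled Het 1 went against its label of cortex: the 10 cortical markers summed to 843 CPM there, against 2254 and 2827 CPM in the other Het libraries, 2484 to 2629 CPM in WT and 1820 to 2274 CPM in KO. The 11 thalamic markers, of which 10 were tested, summed to 1866 CPM in Het 1, 181 and 195 CPM in the other Het libraries, 172 to 190.1 CPM in WT and 157 to 239.9 CPM in KO. *Tcf7l2*, a factor of thalamic neurons, was at 657 CPM in Het 1 and at 14.3 to 63.3 CPM elsewhere, and no thalamic marker was at 0 in Het 1. The 8 meningeal markers summed to 2068, 1860 and 909 CPM in KO 1, 2 and 3, against 555 to 1076 CPM in WT and 557 to 846 CPM in Het, with none at 0 in any library. They were thus high in KO 2 as well as in KO 1. The 11 markers of the ganglionic eminence, the ventral neighbour of the cortex, summed to 86.9, 587 and 335 CPM in KO 1, 2 and 3. Their sums were 369.9, 73.4 and 534 CPM in Het 1, 2 and 3 and 247 to 329 CPM in WT. The Het 1 sum came mostly from *Gad1*, *Gad2* and *Ebf1*, at 127, 109 and 114 CPM, each above its WT levels. *Dlx1* was at 8.72 CPM in Het 1 against 78.6 to 109.6 CPM in WT. *Dlx2*, *Dlx5*, *Dlx6*, *Lhx6*, *Gsx2* and *Isl1* were likewise below their WT levels there, and *Nkx2-1* lay within them. The 12 genes of G2 and M phase summed to 1292 CPM in Het 1, 2550 and 2686 CPM in the other Het libraries, 2006 to 2460 CPM in WT and 2629 to 2973 CPM in KO. The 6 markers of peripheral neurons, of which 3 were tested, summed to 12.2 CPM in Het 1 and to 3.57 to 5.90 CPM elsewhere. The part of these cell types in the results was not tested, and the results are therefore given with and without Het 1 and KO 1. Since these libraries are also the extremes of the 33 genes themselves, counts of members without them are descriptions and are not read against the share of all genes.

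**Figure D1:**
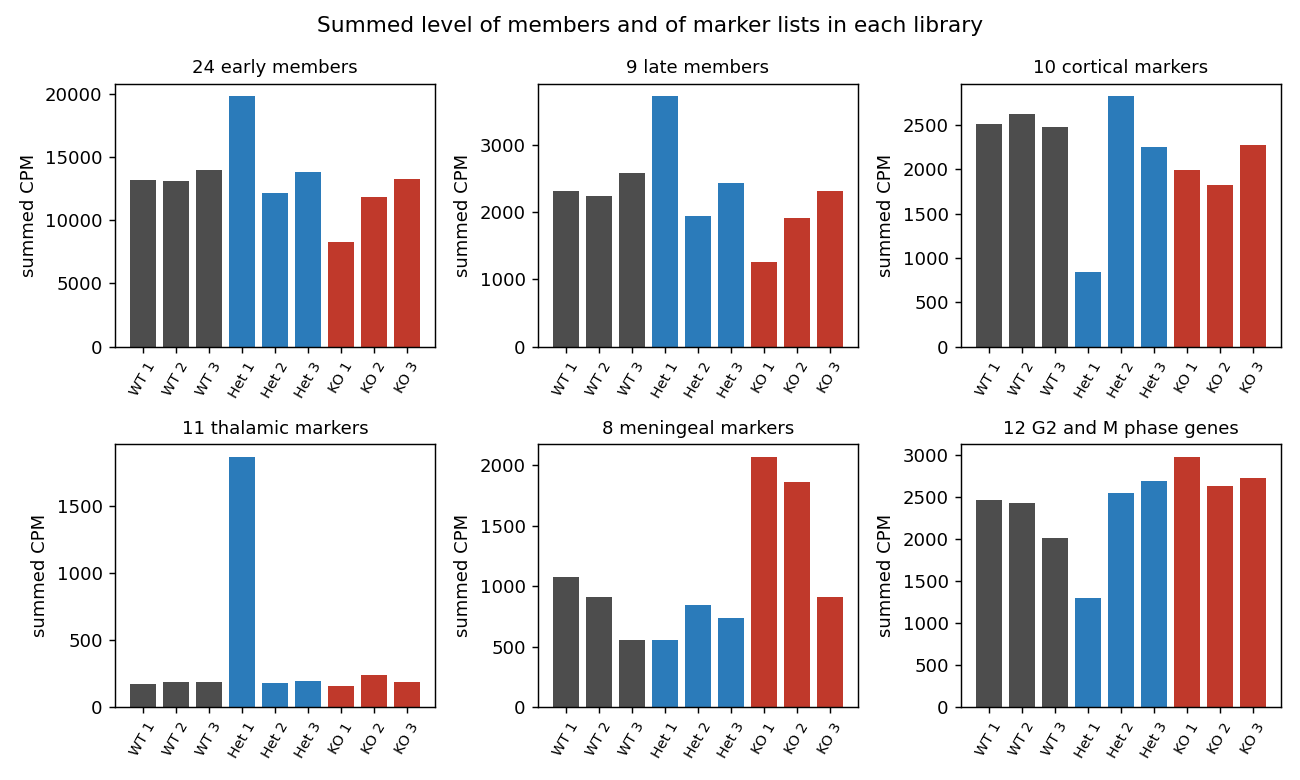
Summed level in CPM (vertical axis, from 0) of the early and late neuronal genes and of 4 marker lists in each of the 9 libraries (horizontal axis; grey WT, blue Het, red KO; 1 bar per library). Het 1 has the highest bars of early and late genes, 1866 CPM of thalamic markers and 843 CPM of cortical markers, and KO 1 has the lowest bars of early and late genes and 2068 CPM of meningeal markers.

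Levels can be set against each other between genes only per length. In WT, CPM per kb of exon ran over more than 2 orders of magnitude. *Tubb2b*, a β-tubulin of migrating neurons, led with 1022 ± 72.7 CPM per kb (SD, n = 3). It was followed by *Stmn1*, whose product binds tubulin dimers in progenitors as well as neurons, at 612 ± 104 CPM per kb and by *Tubb3*, the neuron-specific β-tubulin, at 467 ± 48.5 CPM per kb. *Tubb2a* (232 ± 28.1), *Dpysl3* (189.7 ± 10.1), *Gpm6a* (151 ± 6.11) and *Map1b* (133 ± 20.6 CPM per kb) came next. The SD ranges of *Stmn1* and *Tubb3* overlapped, as did those of *Gpm6a* and *Map1b*, and those of *Tubb3* and *Tubb2a* did not. The highest late gene was *Stmn3* at 74.8 ± 16.3 CPM per kb, which ranked 12th, within its SD of *Cntn2* at 70.9 ± 5.43 and *Elavl3* at 69.0 ± 4.54 CPM per kb. *Mapt* and *Map2* lay at 59.5 ± 10.9 and 58.6 ± 0.559 CPM per kb and did not differ beyond their spread. At the bottom were *Chl1* (8.99 ± 0.818), *Nova1* (6.56 ± 0.479), *Nefm* (5.52 ± 0.198) and *Nefl* (3.84 ± 1.22 CPM per kb), so the neurofilament light and medium subunits were the least abundant transcripts of the list at this age.

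**Figure D2:**
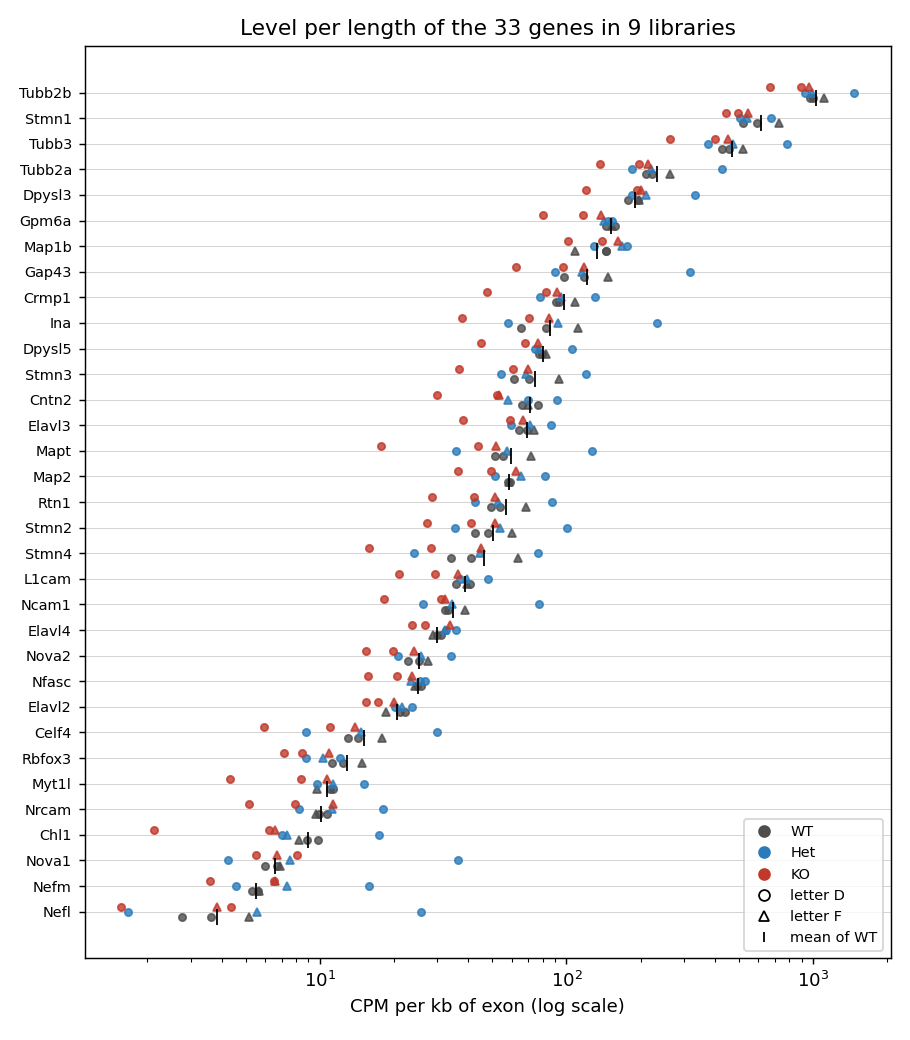
CPM per kb of exon (horizontal log axis) of each of the 33 genes (vertical axis, ordered by the WT mean) in the 9 libraries (grey WT, blue Het, red KO; circles letter D, triangles letter F; black bar, mean of 3 WT libraries). Means in WT run from 3.84 for Nefl to 1022 CPM per kb for Tubb2b, and the blue circle of Het 1 and the red circle of KO 1 form the right and left edges for most genes.

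Since most of the genes varied together across libraries, the sequence around the transcription start is shown for 4 of them: *Cntn2*, *Chl1* and *Rbfox3*, whose KO libraries all lay below the WT libraries, and *Tubb3*, the classic marker of newborn neurons. RefSeq promoter windows on GRCm38.p6, running from 250 bases before to 50 bases after a start, matched 22 of the 33 genes with 40 entries. Capitals mark CANNTG, the E-box core that proneural basic helix-loop-helix factors are known to bind; it is its own reverse complement, so 1 search covered both strands. The *Cntn2* window is chr1:132542891-132543190 (minus strand), that of *Chl1* is chr6:103510626-103510925 (plus), that of *Rbfox3* is chr11:118760992-118761291 (minus, at a start inside the gene) and that of *Tubb3* is chr8:123411303-123411602 (plus).
Cntn2: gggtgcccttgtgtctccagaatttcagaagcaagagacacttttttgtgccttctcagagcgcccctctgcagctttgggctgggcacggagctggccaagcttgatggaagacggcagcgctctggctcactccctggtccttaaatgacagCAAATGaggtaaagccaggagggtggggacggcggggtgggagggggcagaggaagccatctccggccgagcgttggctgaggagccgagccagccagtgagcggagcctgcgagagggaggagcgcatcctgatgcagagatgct
Chl1: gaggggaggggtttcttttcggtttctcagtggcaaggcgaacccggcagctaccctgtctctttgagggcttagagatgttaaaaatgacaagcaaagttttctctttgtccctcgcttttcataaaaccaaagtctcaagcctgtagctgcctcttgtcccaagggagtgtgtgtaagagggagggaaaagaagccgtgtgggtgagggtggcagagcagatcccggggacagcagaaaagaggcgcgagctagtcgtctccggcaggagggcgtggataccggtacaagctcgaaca
Rbfox3: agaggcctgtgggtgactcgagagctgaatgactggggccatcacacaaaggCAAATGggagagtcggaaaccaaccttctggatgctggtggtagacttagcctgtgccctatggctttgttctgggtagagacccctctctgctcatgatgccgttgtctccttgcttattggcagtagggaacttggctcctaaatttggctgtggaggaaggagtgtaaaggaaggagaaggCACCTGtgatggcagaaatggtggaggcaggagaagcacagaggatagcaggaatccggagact
Tubb3: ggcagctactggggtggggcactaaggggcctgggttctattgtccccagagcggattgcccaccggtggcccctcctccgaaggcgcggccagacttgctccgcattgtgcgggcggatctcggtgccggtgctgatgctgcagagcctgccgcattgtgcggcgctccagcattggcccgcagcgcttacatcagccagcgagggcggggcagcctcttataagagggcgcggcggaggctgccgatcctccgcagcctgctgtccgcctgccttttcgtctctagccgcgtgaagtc
The *Cntn2* window held 1 such hexamer, that of *Rbfox3* 2 and those of *Chl1* and *Tubb3* 0. Over the 40 entries, 31 (77.5%) held CANNTG, against 72.3% of 32851 RefSeq mouse windows of the same length. CAGATG, 1 of the forms that CANNTG includes, was in 27.5% against 17.2%, and CAGCTG, another, in 25% against 16.3%. Several entries of 1 gene overlap, and the median GC content was 57% against 52.7%. A match is a description of these letters, and nothing about a factor was measured.

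The 3 tubulin genes followed the common pattern. *Tubb3* (chromosome 8, 123411424 to 123422015, plus strand, GRCm38) was at 849.9, 796 and 972 CPM in WT, 1459, 698 and 880.3 CPM in Het and 489, 748 and 846 CPM in KO. Het 1 was the highest and KO 1 the lowest library, and the genotypes overlapped. *Tubb2a* was at 356, 339 and 425 CPM in WT, 686, 296 and 353 CPM in Het and 219, 318 and 345 CPM in KO, again with Het 1 and KO 1 at the ends. *Tubb2b* (chromosome 13, 34126748 to 34130466, minus strand) was at 2217, 2283 and 2533 CPM in WT, 3354, 2122 and 2279 CPM in Het and 1536, 2041 and 2197 CPM in KO. Here all 3 KO libraries lay below all 3 WT libraries, KO 3 only just below WT 1, and Het overlapped both. The log2 fold changes of KO against WT were -0.33 for *Tubb3*, -0.34 for *Tubb2a* and -0.28 for *Tubb2b* (edgeR adjusted p = 0.888 to 0.908). *Tubb2a* and *Tubb2b* are neighbours on chromosome 13, and 35.9% of the 100-base stretches of *Tubb2a* transcripts also occur in *Tubb2b*, so the split of reads between them is uncertain. The ratio of *Tubb2a* to *Tubb2b* CPM ran from 0.139 in Het 2 to 0.205 in Het 1.

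The 3 genes of microtubule-associated proteins parted from each other. *Map1b*, known for growing axons and an early gene, was at 2284, 2295 and 1723 CPM in WT, 2794, 2049 and 2667 CPM in Het and 1604, 2216 and 2564 CPM in KO. It spanned the least range relative to its level of the 3, its genotypes overlapped, and its log2 fold change in KO against WT was 0.018 (SE 0.20, edgeR adjusted p = 0.999). *Mapt* (chromosome 11, 104231390 to 104332090, plus strand), which encodes tau of axonal microtubules, was at 415, 388 and 541 CPM in WT, 959, 268 and 433 CPM in Het and 134, 329.8 and 389 CPM in KO. KO 1 stood at 0.332 times and Het 1 at 2.47 times the median of the other 8 libraries, and its KO against WT change had a wide error: -0.66 (SE 0.49, edgeR adjusted p = 0.894). *Map2*, the gene of the dendritic protein, was at 953, 970.4 and 966 CPM in WT, 1349, 840.4 and 1081 CPM in Het and 600.2, 811 and 1023 CPM in KO, and the 3 WT libraries lay close together while Het and KO spread to both sides. The ratio of *Mapt* to *Map1b* CPM was 0.182, 0.169 and 0.314 in WT, 0.343, 0.131 and 0.162 in Het and 0.0834, 0.149 and 0.152 in KO. All 3 KO ratios were thus below all 3 WT ratios, and the Het ratios spanned both. This is 1 pair of genes, each of which overlapped between KO and WT. Over all late and early genes of the list the same kind of difference overlapped between genotypes, as given below.

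The 4 stathmin genes encode proteins that sequester tubulin, and *Stmn2*, *Stmn3* and *Stmn4* are the neuronal relatives of *Stmn1*. *Stmn1* was at 1135, 1001 and 1394 CPM in WT, 1298, 975 and 1038 CPM in Het and 854, 955 and 1043 CPM in KO. WT 3 was highest and KO 1 lowest, and KO overlapped WT only through WT 2. Of its 100-base stretches, 12.8% also occur in *Gm11223*. *Stmn2*, enriched in growth cones, was at 269, 239.5 and 338 CPM in WT, 561, 197 and 299.8 CPM in Het and 153, 231 and 287 CPM in KO, with overlap of all genotypes. *Stmn3* ran from 41.7 CPM in KO 1 to 137 CPM in Het 1, and *Stmn4* from 30.4 to 146 CPM in the same libraries. KO against WT gave -0.31 (SE 0.15) for *Stmn1*, -0.34 (SE 0.37) for *Stmn2*, -0.43 (SE 0.33) for *Stmn3* and -0.64 (SE 0.47) for *Stmn4*, with edgeR adjusted p from 0.858 to 0.916.

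The 3 intermediate filament genes spread widely, with Het 1 far above the rest. *Ina*, which encodes α-internexin, the filament protein of early neurons, was at 266, 211 and 359 CPM in WT, 757, 187 and 300.2 CPM in Het and 123, 229 and 275 CPM in KO. *Nefl*, the light neurofilament subunit gene, was at 12.2, 9.33 and 17.4 CPM in WT, 86.8, 5.65 and 18.9 CPM in Het and 5.30, 14.7 and 13.0 CPM in KO. *Nefm*, the medium subunit gene, was at 32.4, 30.6 and 32.8 CPM in WT, 91.3, 26.4 and 42.6 CPM in Het and 20.8, 37.7 and 38.1 CPM in KO. For all 3 genes Het 1 was the highest library, at 3.05, 6.89 and 2.80 times the median of the other 8, and the genotypes overlapped. Het against WT was 1.51 (SE 0.83, edgeR adjusted p = 0.999) for *Nefl*, the largest log2 difference of the 33 genes, yet without Het 1 and KO 1 it was -0.090. On chromosome 14 *Nefl* lies within the annotated span of *Nefm*, on the opposite strand, and their exons overlap. Of the 100-base stretches of *Nefl*, 30.8% also occur in *Nefm* transcripts. Since no strand setting is given in the sources used here, reads of that overlap cannot be told apart, and the same holds for the 11.4% that *Ina* shares with *Nt5c2*.

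Among the growth cone genes, *Gap43*, whose product lies under the growth cone membrane, was at 180.2, 148 and 225 CPM in WT, 484, 137 and 175 CPM in Het and 95.4, 148 and 179 CPM in KO. Het 1 was 2.99 times the median of the other libraries and KO 1 the lowest, and the genotypes overlapped. The collapsin response mediator genes, which act downstream of semaphorins, spread less. *Crmp1* ran from 335 CPM in KO 1 to 918 CPM in Het 1, and *Dpysl3* from 794 to 2197 CPM. *Dpysl5* (chromosome 5, 30711564 to 30799375, plus strand) was at 588, 572 and 612 CPM in WT, 779.97, 549 and 572 CPM in Het and 332, 501 and 564 CPM in KO, with each KO library below each WT library, KO 3 only just below WT 2. The log2 changes of KO against WT were -0.39 for *Gap43*, -0.40 for *Crmp1*, -0.15 for *Dpysl3* and -0.34 for *Dpysl5* (edgeR adjusted p = 0.870 to 0.956).

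Of the 7 genes of RNA-binding proteins, *Rbfox3* stood out by its order. It encodes the NeuN antigen, a splicing regulator of postmitotic neurons (chromosome 11, 118489762 to 118911597, minus strand). *Rbfox3* was at 72.6, 65.5 and 86.6 CPM in WT, 51.1, 70.4 and 59.98 CPM in Het and 41.5, 49.2 and 63.7 CPM in KO. Every KO library lay below every WT library, and Het 1, the highest library for most of the list, was the lowest of Het here. KO had 68.7% and Het 80.8% of the WT mean. On the log2 scale KO differed from WT by -0.54 (SE 0.18, 95% interval -0.96 to -0.13, unadjusted p = 0.0165, edgeR adjusted p = 0.858).

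The Elavl genes, whose products stabilise neuronal mRNAs, included 2 that spread little. *Elavl2* was at 176, 183 and 154 CPM in WT, 168, 196 and 179.6 CPM in Het and 128, 143 and 166 CPM in KO, and its KO libraries lay below its Het libraries but overlapped WT. *Elavl3* was at 475, 444 and 507 CPM in WT, 595, 412 and 488 CPM in Het and 263, 409 and 461 CPM in KO, with Het 1 highest, KO 1 lowest and all genotypes overlapping. *Elavl4* was at 167, 161 and 155 CPM in WT, 192, 175 and 173 CPM in Het and 128, 144 and 182 CPM in KO, with all 3 Het libraries above all 3 WT libraries, a log2 difference of 0.16 (SE 0.12, adjusted p = 0.999 by edgeR). This was 1 of 33 genes with Het wholly above WT, against 2.46% of all genes tested, and 0 of 33 had Het wholly below WT, against 2.72%.

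*Nova2* and *Nova1* encode related splicing regulators, and they spread very differently. *Nova2* was at 211, 191 and 230.3 CPM in WT, 285, 173 and 215 CPM in Het and 129, 165 and 201 CPM in KO, with overlapping genotypes. It shares 29.7% of its 100-base stretches with an antisense gene, *Gm26821*, so its count is uncertain with no strand setting known. *Nova1* had 317 CPM in Het 1 and 37.2 to 70.9 CPM in the other 8 libraries. Its Het against WT difference was 1.29 (SE 0.66, edgeR adjusted p = 0.999), and without Het 1 and KO 1 it was -0.16. *Celf4*, a splicing and translation regulator of later neurons, was at 122, 111 and 154 CPM in WT, 257, 75.6 and 126 CPM in Het and 51.1, 94.8 and 119.7 CPM in KO, with Het 1 highest and KO 1 lowest. *Myt1l*, which encodes a zinc finger repressor of non-neuronal genes and is the only transcription factor of the list, ran from 60.5 CPM in KO 1 to 212 CPM in Het 1, and KO against WT was -0.45 (SE 0.29, edgeR adjusted p = 0.884).

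Among the 6 adhesion genes, *Cntn2*, *Chl1* and *Nfasc* had every KO library below every WT library, as did 7.56% of all genes tested. *Cntn2* (ENSMUSG00000053024, chromosome 1, 132509427 to 132543256, minus strand) encodes a GPI-linked adhesion protein of the first cortical axons. It was at 614, 714 and 652 CPM in WT, 651, 851 and 540.3 CPM in Het and 279, 485 and 496 CPM in KO. Every KO library was below every WT and every Het library, Het 2 was the highest of the 9, and Het 1 lay among the WT libraries. The KO mean was 63.6% of the WT mean, a log2 difference of -0.65 (SE 0.23, 95% interval -1.18 to -0.12, unadjusted p = 0.0213, edgeR adjusted p = 0.858). Set against Het, the KO level differed by -0.70 (SE 0.23, 95% interval -1.23 to -0.17, unadjusted p = 0.0157, edgeR adjusted p = 0.607).

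*Chl1* (ENSMUSG00000030077, chromosome 6, 103510586 to 103750211, plus strand), the gene of the close homologue of L1, was at 109, 121 and 101 CPM in WT, 213, 86.4 and 90.3 CPM in Het and 26.1, 76.8 and 80.8 CPM in KO. The KO libraries were again below all others, and KO 1 stood at 0.272 times the median of the other 8, the lowest such ratio of the 33 genes. Its log2 fold change of KO against WT was the largest of the list but had a wide error: -0.85 (SE 0.46, 95% interval -1.89 to 0.19, unadjusted p = 0.0958, edgeR adjusted p = 0.870). Without Het 1 and KO 1 it was -0.49 (SE 0.087, unadjusted p = 6.0e-04, edgeR adjusted p = 0.889), and Het against WT then was -0.33 (SE 0.087, unadjusted p = 0.00633, edgeR adjusted p = 0.9997), whereas with all libraries Het against WT was 0.23. Het 1 and KO 1 were the highest and the lowest library of *Chl1* itself, so leaving them out narrows its spread. Nothing is read from the p-values of that fit.

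*Nfasc*, which encodes neurofascin of the axon initial segment, lies next to *Cntn2* on chromosome 1. It was at 364, 351 and 343 CPM in WT, 359, 378 and 332 CPM in Het and 221, 290.4 and 335 CPM in KO. KO lay wholly below WT, with KO 3 close to WT 3, and overlapped Het through Het 3. *L1cam*, the founder of the L1 family, was at 299, 262 and 292 CPM in WT, 354, 271 and 289.9 CPM in Het and 153, 216 and 266 CPM in KO, with KO below Het but overlapping WT. *Ncam1*, the neural cell adhesion molecule gene, was at 288, 279 and 337 CPM in WT, 672, 226 and 297 CPM in Het and 158, 269 and 279.6 CPM in KO, and *Nrcam*, of the L1 family, ran from 68.7 CPM in KO 1 to 242 CPM in Het 1. For these last 2 genes all genotypes overlapped.

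The membrane proteins were *Gpm6a*, which encodes a tetraspan glycoprotein of filopodia, and *Rtn1*, a reticulon of the endoplasmic reticulum. *Gpm6a* (chromosome 8, 54954843 to 55060871, plus strand) was at 465, 504 and 491 CPM in WT, 493, 474 and 454 CPM in Het and 258, 377 and 443 CPM in KO. WT and Het lay together between 454 and 504 CPM, and all 3 KO libraries were below them. KO against WT was -0.44 (SE 0.17, 95% interval -0.82 to -0.056, unadjusted p = 0.0293, edgeR adjusted p = 0.858). *Rtn1* ran from 142 CPM in KO 1 to 437 CPM in Het 1, with a log2 change of -0.49 (SE 0.29, edgeR adjusted p = 0.874) in KO against WT.

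**Figure D3:**
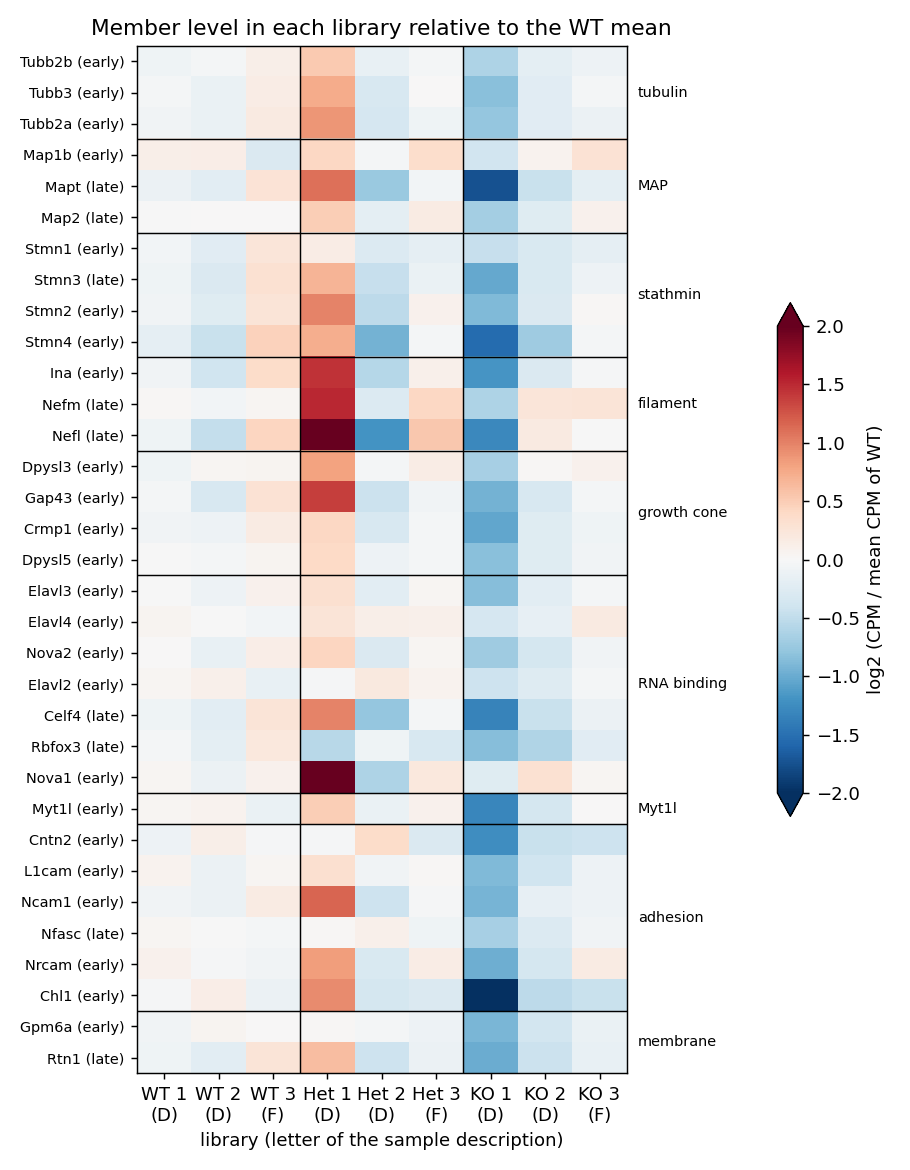
Level of each of the 33 genes (rows, grouped by role) in each library (columns) as log2 of CPM over the mean CPM of the 3 WT libraries (red above, blue below; colours end at -2 and 2). The column of Het 1 is red and that of KO 1 is blue for most rows, with Rbfox3 blue in Het 1, and the other 4 Het and KO columns are pale.

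The comparison of KO with WT asked whether neuronal genes differ when both *Med13l* alleles are null. Of the 33 genes, 30 had a lower level in KO, with a median log2 fold change of -0.34, whereas the median of all genes tested was 0.0007. The 3 others, *Map1b*, *Nefm* and *Nova1*, lay between 0.01 and 0.05. No gene of the list passed the test: edgeR called 0 of 33 (adjusted p = 0.858 to 0.999) and 1 of 18844 genes in all (0.00531%), and DESeq2 and limma-voom also called 0 of 33. At an unadjusted p under 0.05, 4 of 33 were lower, namely *Rbfox3*, *Cntn2*, *Gpm6a* and *Nfasc*, and 0 were higher, and 2.27% of all genes were lower at that level. For 7 of 33 genes every KO library lay below every WT library (*Rbfox3*, *Cntn2*, *Tubb2b*, *Dpysl5*, *Nfasc*, *Chl1* and *Gpm6a*), against 7.56% of all genes.

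KO 1 held much of this difference. Without KO 1 the median was -0.17 and 27 of 33 genes were lower, and without KO 3 the median was -0.52. Without Het 1 and KO 1, 27 of 33 were lower with a median of -0.17, and 0 were called. In that fit 4 genes (*Chl1*, *Cntn2*, *Rbfox3* and *Gpm6a*) had an unadjusted p under 0.05, all lower, where 2.54% of all genes did. The libraries left out were the members' own extremes, so nothing is read from that difference. The edgeR adjusted p of these 4 genes was 0.889. Within the libraries of letter D, 32 of 33 genes were lower in KO (median -0.48). Between the single KO and WT libraries of letter F, 25 of 33 were lower (median -0.21). The log2 difference was -0.61 within D and -0.44 within F for *Rbfox3*, -0.85 and -0.40 for *Cntn2*, -0.64 and -0.15 for *Gpm6a*, and -0.50 and -0.033 for *Nfasc*. Meningeal markers summed to 909 to 2068 CPM in KO and 555 to 1076 CPM in WT, and cortical markers to 1820 to 2274 CPM in KO and 2484 to 2629 CPM in WT. Erythroid markers summed to 3103 to 4626 CPM in KO and 2109.7 to 3021 CPM in WT, and all 9 had a higher level in KO (median 0.64 on the log2 scale, 6 at an unadjusted p under 0.05). Of the 12 endothelial and mural markers, 11 had a higher level in KO (median 0.56, 5 at an unadjusted p under 0.05), with sums of 469 to 882 CPM against 365 to 616 CPM in WT. The 12 genes of G2 and M phase all had a higher level in KO (median 0.26), and their sums in KO and WT did not overlap. The 6 markers of intermediate progenitors all had a lower level in KO (median -0.21), with sums of 492 to 671 CPM against 723 to 747 CPM in WT. Of the 8 radial glia markers, 6 were higher and 2 lower in KO (median 0.064), with sums of 815 to 929 CPM against 904 to 913 CPM in WT. None of these markers was called by edgeR, and their part in the difference was not tested.

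**Figure D4:**
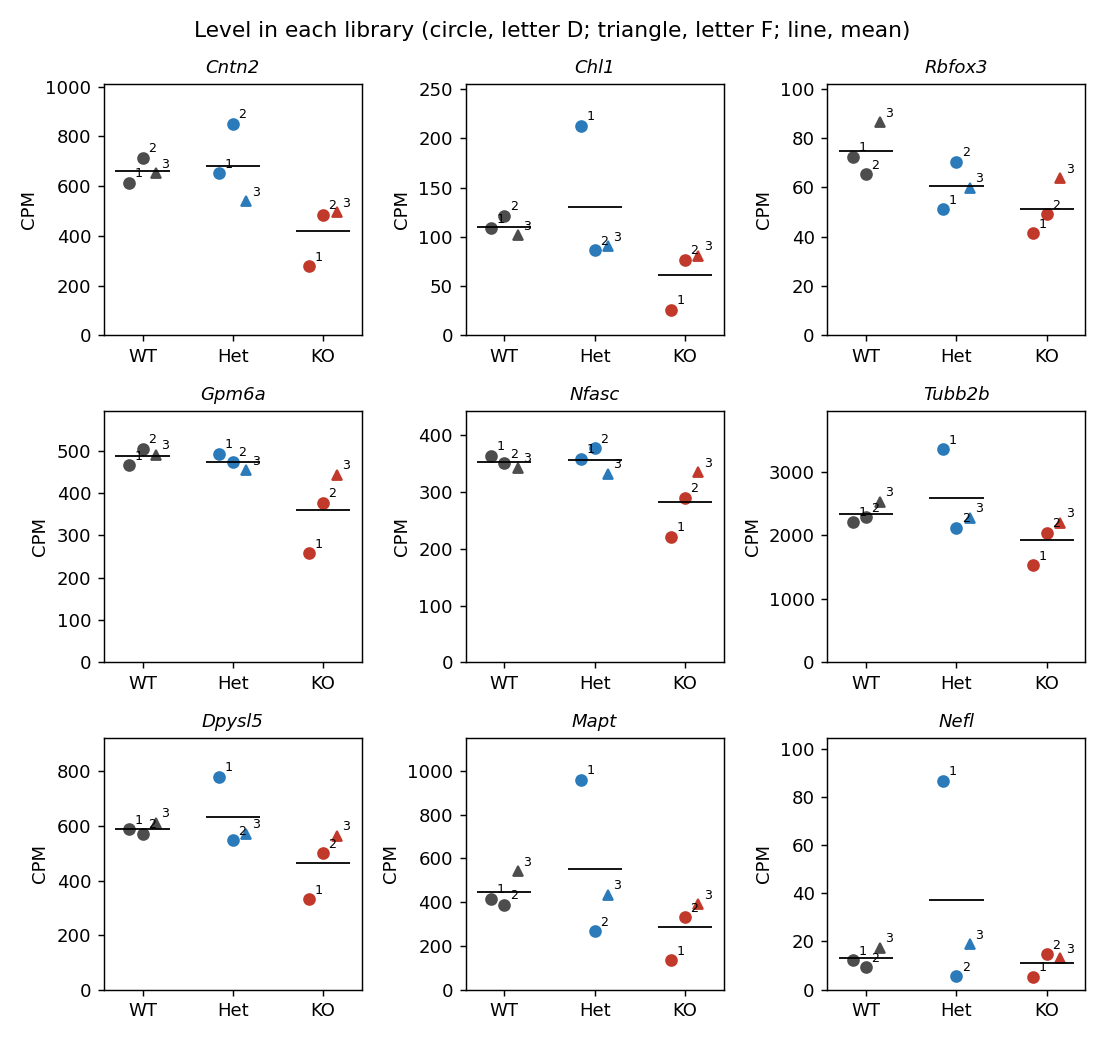
CPM (vertical axes, from 0) of 9 genes in the WT (grey), Het (blue) and KO (red) libraries, numbered by replicate, with circles for letter D, triangles for letter F and a line at the mean of 3. In the first 7 panels every KO point lies below every WT point, and in the Mapt and Nefl panels Het 1 is far above all other points and the genotypes overlap.

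In Het against WT, which asked about the loss of 1 allele, 30 of 33 genes had a higher level in Het and the median log2 fold change was 0.17 (all genes 0.0021). The direction rested on Het 1. Without Het 1 and KO 1, 26 of 33 genes were lower and the median was -0.12, and within letter F, where Het 3 is set against WT 3, 23 of 33 were lower (median -0.14). Within letter D, which holds Het 1, 31 of 33 were higher (median 0.24). The largest differences, those of *Nefl* and *Nova1*, came from Het 1, where thalamic markers summed to 1866 CPM. With edgeR 0 of 33 genes were called (adjusted p = 0.999) and 0% of all genes, and 0 of 33 had an unadjusted p under 0.05, against 1.56% of all genes. DESeq2 and limma-voom also called 0 of 33.

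KO against Het, 2 sets of null-carrying embryos, gave the widest difference. All 33 genes had a lower level in KO, with a median of -0.54 (all genes -0.0062). Het 1 and KO 1, the highest and the lowest library for most of the genes, lie on opposite sides of this comparison. Without both libraries the median was -0.015 and 18 of 33 were lower, and between the letter F libraries it was -0.06 with 25 of 33 lower. Within letter D, which holds both libraries, all 33 were lower (median -0.77). All 8 meningeal, 12 endothelial and mural, 9 erythroid and 12 G2 and M phase genes had a higher level in KO than in Het (medians 1.11, 0.72, 0.48 and 0.38), and their part was not tested. With edgeR 0 of 33 genes were called (adjusted p = 0.607 to 0.693; DESeq2 and limma-voom 0 of 33), against 0.00531% of all genes. An unadjusted p under 0.05 was reached by 6 of 33, all lower: *Cntn2*, *L1cam*, *Elavl2*, *Nfasc*, *Chl1* and *Gpm6a*, against 2.91% of all genes. For 5 of these, all but *Nfasc*, the KO libraries lay wholly below the Het libraries, against 5.05% of all genes. Without Het 1 and KO 1, *Cntn2* went from -0.70 to -0.51 and *Elavl2* from -0.32 to -0.29. *L1cam* went from -0.52 to -0.22, *Nfasc* from -0.34 to -0.19, *Gpm6a* from -0.40 to -0.18 and *Chl1* from -1.08 to -0.17. Het 1 was the lowest Het library of *Elavl2* (168 CPM), and for *Cntn2* it lay below Het 2 (651 and 851 CPM). Nothing is therefore read from how much of a difference was kept. The comparisons share libraries, so their results are not independent of each other.

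**Figure D5:**
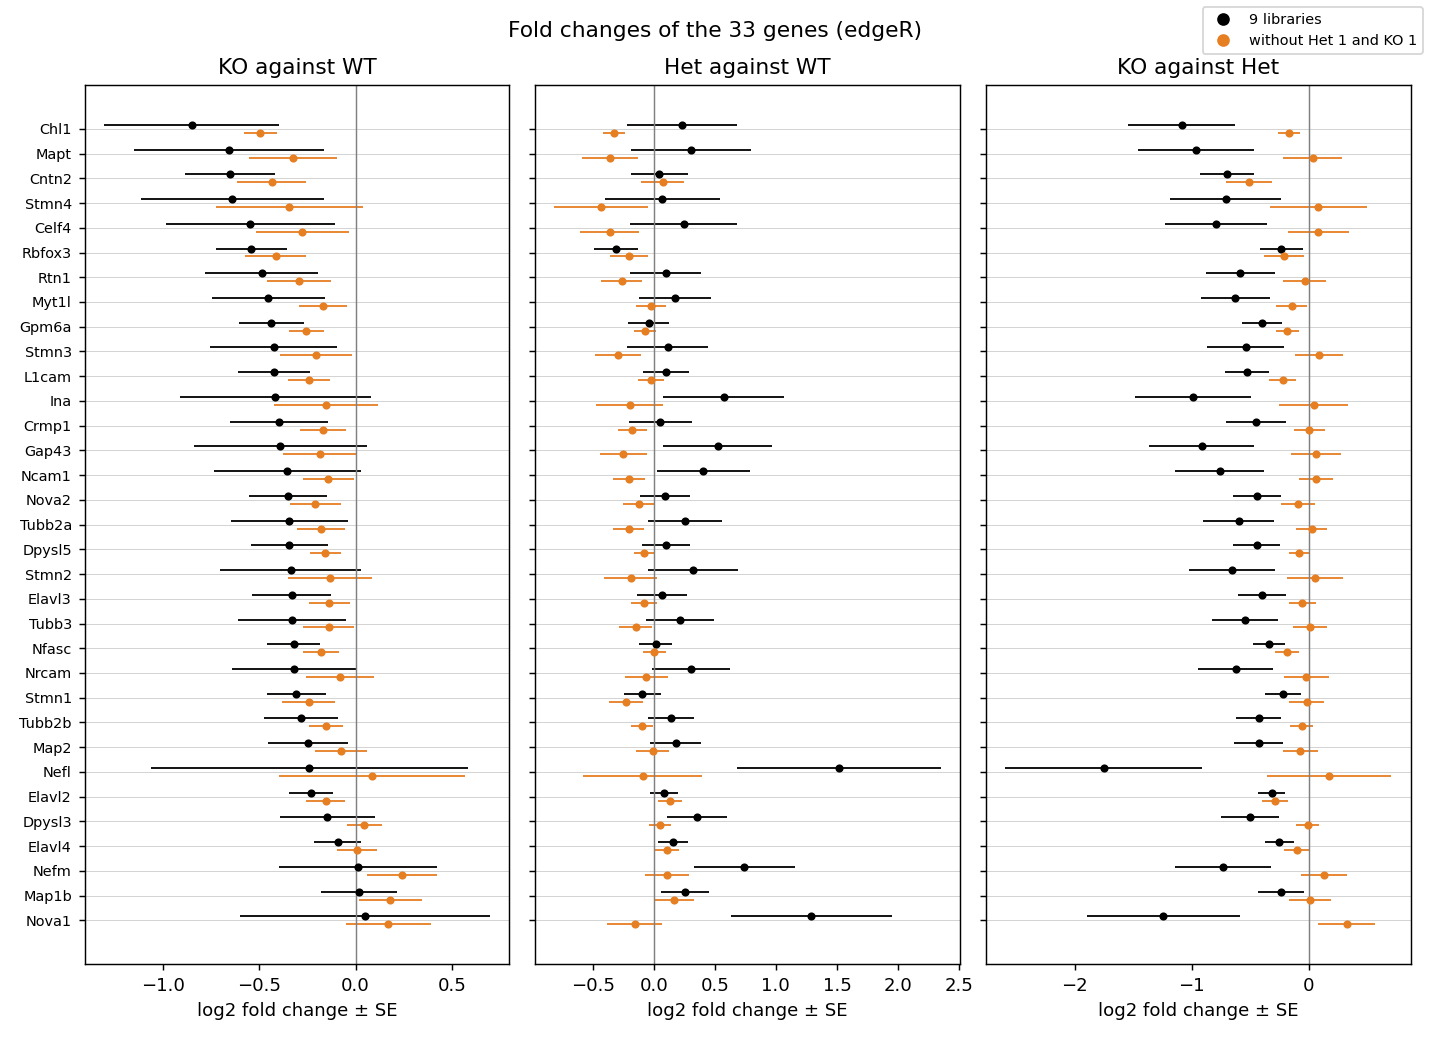
Log2 fold change with its SE (horizontal axes) of each of the 33 genes (vertical axis, ordered by KO against WT) in 3 comparisons of genotypes, from all 9 libraries (black) and without Het 1 and KO 1 (orange). Leaving out both libraries takes the median from -0.34 to -0.17 in KO against WT, from 0.17 to -0.12 in Het against WT and from -0.54 to -0.015 in KO against Het.

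Early and late genes had medians of the same sign in each comparison of genotypes with all 9 libraries. In KO against WT the 24 early genes had a median of -0.34 (22 lower) and the 9 late genes -0.43 (8 lower). In Het against WT the medians were 0.17 and 0.18, and in KO against Het -0.53 and -0.58. Without Het 1 and KO 1 they were -0.16 and -0.21 in KO against WT, -0.11 and -0.20 in Het against WT, and -0.018 and 0.034 in KO against Het. The median ratio of the late genes to the other 8 libraries was 1.85 in Het 1 and 0.549 in KO 1, against 1.498 and 0.559 for early genes, a difference that was not tested. The mean log2 CPM of late genes minus that of early genes, each centred on the 9 libraries, was -0.0092, -0.078 and 0.13 in WT, 0.19, -0.19 and 0.054 in Het and -0.13, 0.018 and 0.014 in KO. The 3 genotypes overlapped in this difference, and their means of 0.014 ± 0.10, 0.019 ± 0.20 and -0.032 ± 0.083 (SD, n = 3) lay within 1 SD of each other.

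The libraries were also compared by the letter of their descriptions, D or F. With genotype in the model, 30 of 33 genes had a higher level in the F than in the D libraries, with a median log2 difference of 0.14 (all genes -0.0057), and edgeR called 0 of 33 (adjusted p = 0.888 to 0.999) and 0.0371% of all genes. An unadjusted p under 0.05 was reached by 0 of 33, and DESeq2 and limma-voom called 0 of 33. The direction rested on KO 3: without it the median was -0.036 and 22 of 33 genes had a lower level in F. Without KO 1 the median was 0.038 and 13 of 33 were lower. Without Het 1 and KO 1, both of letter D, 29 of 33 genes were higher in F, with a median of 0.23. In that fit 16 of 33 genes had an unadjusted p under 0.05 and a higher level in F, where 5.5% of all genes did, but the libraries left out were the members' own extremes and nothing is read from the difference. Of the fits run, only this one called *Stmn4*, with a log2 difference of 0.78 in favour of F (SE 0.08, adjusted p = 0.0435 by edgeR), where 0.0732% of all genes were called. *Stmn4* was at 78.4, 65.2 and 122 CPM in WT, 146, 46.0 and 85.8 CPM in Het and 30.4, 54.0 and 86.0 CPM in KO, and in WT and KO library 3 was the highest, while in Het it lay below Het 1. The next largest differences were those of *Nefl* with 0.74 (SE 0.33, edgeR adjusted p = 0.442), *Ina* with 0.52 and *Celf4* with 0.49 (edgeR adjusted p = 0.159 and 0.1202). Meningeal markers summed to 555, 734 and 909 CPM in the F libraries and to 557 to 2068 CPM in the D libraries, and all 8 had a lower level in F with a median of -0.58 over all 9 libraries (4 at an unadjusted p under 0.05). The 12 endothelial and mural markers were likewise all at a lower level in F (median -0.56, 10 at an unadjusted p under 0.05), and 10 of 11 markers of the ganglionic eminence were at a higher level (median 1.69). The ganglionic eminence sums were 329, 534 and 335 CPM in the F libraries and 73.4 to 587 CPM in the D libraries. By these sums Het 2 and KO 1 were the lowest D libraries, and KO 2 was the highest of all libraries. The Het 1 sum came mostly from *Gad1*, *Gad2* and *Ebf1*, as given above. The part of these markers in the result was not tested.

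Relatives of these genes outside the list were read in the same tests. Of 48 further genes of the tubulin, microtubule-associated, filament, growth cone, RNA-binding and adhesion families, with 6 other relatives (*Myt1*, *St18*, *Rtn2*, *Rtn3*, *Rtn4* and *Gpm6b*) among them, all of which were tested, edgeR called 0 in each of the 3 comparisons of genotypes. In KO against WT 33 of 48 were lower, with a median of -0.12. The 8 RNA-binding relatives had a median of -0.33, as the 7 RNA-binding members. Growth cone, microtubule-associated and adhesion relatives were at -0.24, -0.080 and -0.19, against -0.37, -0.25 and -0.39 for members. Tubulin and filament relatives went the other way, at 0.0083 and 0.16 against -0.33 and -0.24 for members. An unadjusted p under 0.05 was reached by 1 of the 48. This was *Rtn2*, another reticulon gene, at 67.3, 68.8 and 78.3 CPM in WT, 71.8, 64.2 and 65.7 CPM in Het and 41.7, 57.4 and 59.7 CPM in KO (log2 fold change -0.43, SE 0.14, unadjusted p = 0.012, edgeR adjusted p = 0.858), with all KO libraries below all WT libraries. The next smallest p-values belonged to *Tubb6*, a β-tubulin not restricted to neurons, which was higher by 0.58 (SE 0.27), and to *Basp1*, a growth cone relative of *Gap43*, which was lower at -0.41 (SE 0.19). In Het against WT 28 of 48 were higher, with a median of 0.075. The 4 filament relatives had a median of 0.51 and the 3 filament members 0.74. Microtubule-associated, RNA-binding and adhesion relatives were at 0.091, 0.12 and 0.10, against 0.25, 0.092 and 0.17 for members. Tubulin and growth cone relatives went the other way, at -0.056 and -0.067 against 0.21 and 0.23 for members. An unadjusted p under 0.05 was reached by 1 of the 48. It was *Prph*, the peripherin gene, at 1.91, 2.21 and 2.37 CPM in WT, 5.87, 4.14 and 2.77 CPM in Het and 3.32, 3.14 and 2.58 CPM in KO (0.98, SE 0.28, edgeR adjusted p = 0.999), followed by the *Myt1l* relatives *Myt1* (0.27) and *St18* (0.27). In KO against Het 35 of 48 were lower (median -0.16), with 6 at an unadjusted p under 0.05. The smallest p-values were those of *Tubb6* (0.79), the splicing regulator gene *Rbfox1* (-0.96) and *Rtn2* (-0.34), each at an edgeR adjusted p of 0.607.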

How the data were processed

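Bulk RNA-seq counts of 9 libraries were used, 3 per genotype. The authors deposited whole-number read counts per gene, not normalised, in 1 table of 55335 IDs; 55154 IDs could be given a symbol, and 24220 had no count. Per the submitters' processing notes the series used STAR 25.2b and StringTie 2.2.1 on the build mm10. Those notes cover bulk and single cells alike, and the tool behind the counts, the annotation and the strand setting are not given in the sources used here.

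The 33 genes, the early and late division, the marker and family lists and the removal of Het 1 and KO 1 were chosen with earlier results of these data known. The test was the quasi-likelihood F test of edgeR 4.0.16 (R 4.3.3) after TMM scaling and filterByExpr by genotype (minimum count 10), robust, with all 9 libraries in 1 fit. The 18844 genes tested held 99.9% of the counts, at a common biological coefficient of variation of 28.2%. Benjamini-Hochberg adjustment ran over all genes tested in a comparison, and calls needed an adjusted p under 0.05. SEs come from the F statistic. Levels per length divide CPM by the exon union of GENCODE M21 on GRCm38. Per-library values are given for members named by rule (the main tubulin, microtubule, filament, RNA-binding and adhesion genes and those with an unadjusted p under 0.05). *Dpysl5* and *Stmn4* were added after their values were seen. Of the related genes, the 3 with the smallest p are named.

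Alternatives were RLE and upper-quartile factors, 2 other filters, DESeq2 1.42.0, limma-voom (limma 3.58.1), fits of 2 groups, a replicate block, the description letter as a factor, Het 1 and KO 1 left out together, and each library left out in turn. The edgeR step was tested on simulated data. No library was a copy of another in its group: the lowest mean chi-square per gene was 22.8.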

Additional observations from a re-analysis of the deposited data

How the results depend on the processing

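Of 682 recomputed values, 617 were labelled the same, 50 moved, 14 reversed and 1 became stronger. A median was the same if it kept its sign and moved by less than 0.403. That is the pooled SD, between libraries of a genotype, of the mean log2 level of the members. It is wider than the KO against WT median of -0.34, whose shift to -0.17 without KO 1 thus counted as the same. A gene was the same if it kept its sign and stayed uncalled, and a count if it changed little. The 617 is therefore no measure of robustness. No member was called in a comparison of genotypes under any alternative run (0 of 33 each time). The count over all genes in KO against WT was 17 with DESeq2 and 0 with the replicate block, with the description letter as a factor or with Het 1 and KO 1 left out, and 0 to 1 when leaving out 1 library. In Het against WT it was 1 with DESeq2. In KO against Het it was 21 with DESeq2, 0 with limma-voom, the replicate block, the letter as a factor, a fit of 2 groups or Het 1 and KO 1 left out, and 0 to 1 when leaving out 1 library. For letter F against D it was 177 with DESeq2, 4 with at least 10 counts in every library, 14 without Het 1 and KO 1 (1 of them a member, *Stmn4*) and 1 to 14 when leaving out 1 library. The cause of these shifts was not tested.

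Leaving out Het 1 and KO 1 reversed the Het against WT medians, to -0.12 for all members, -0.11 for early and -0.20 for late ones, as well as *Nova1* (-0.16) and *Nefl* (-0.090). The KO against Het median became -0.015, and that of late members 0.034. Leaving out 1 library at a time, the Het against WT member median ran from -0.12 to 0.33 (early -0.11 to 0.34, late -0.20 to 0.33), *Nova1* from -0.16 to 1.74 and *Nefl* from -0.090 to 2.02. The letter median ran from -0.036 to 0.31 (early -0.067 to 0.31, late -0.00098 to 0.48), the KO against WT member median from -0.52 to -0.17, and that of KO against Het from -0.75 to -0.23.

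Replicate numbers did not stand out as pairs: correlations of same-numbered deviations ran from -0.27 to 0.27, and those of different numbers from -0.30 to 0.39. The pairs of replicate 3, all of letter F, were positive (0.082, 0.15 and 0.27). With the replicate block the member medians were -0.34 (KO against WT), -0.54 (KO against Het) and 0.17 (Het against WT), with 0 members called. Each replicate number occurs once in every genotype, so these medians could hardly move and are no check of the result.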
